A study of Arabidopsis thaliana with 12 samples.

Results

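Leaves of the pdx1.3 mutant were set against leaves of the wild type (WT) of Arabidopsis thaliana, over all probe sets of the Affymetrix ATH1 array. A probe set is a group of short probes for a transcript, and its brightness is its signal. The samples are those titled as pdx1.3 ko leaves and as WT leaves, 3 arrays each, which makes 6 of the 12 arrays of the study. The mutant is a knockout in the accession Col-0, and WT is Col-0. Both groups were harvested from seedlings 10 days after germination, grown in long days on diluted Murashige and Skoog medium with sucrose and without vitamin B6, and every sample is described by the study as a biological replicate. The other 6 arrays hold the roots of the same 2 genotypes, and served here to estimate the spread of each probe set and to ask whether a change in leaves differed from that in roots. The genotype entry of the sample characteristics is the opposite of the titles throughout, and the groups follow the titles. The mutant is 1 line, the sources used here do not name its allele, and no rescued line was measured. Other differences between the lines therefore cannot be told apart from an effect of PDX1.3. Leaves were sampled whole, and fewer cells of a type cannot be told apart from less of a transcript in each cell.

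PDX1.3 encodes a catalytic subunit of pyridoxal 5'-phosphate synthase, the plant enzyme that makes vitamin B6 from sugar phosphates and glutamine-derived ammonia. Pyridoxal 5'-phosphate is the cofactor of aminotransferases, decarboxylases and many other enzymes of amino acid metabolism, and vitamin B6 also quenches reactive oxygen. The gene families counted here are those through which leaves grow, regulate transcription, respond to drought and pathogens, and move sugars and amino acids.

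In the authors' deposited quality values, the percent of probe sets called present lay at 66.3 to 66.7 in pdx1.3 leaves and at 64.3 to 64.6 in WT leaves, and the ratio of 3' to 5' probes of actin, which is higher for degraded RNA, at 3.12, 5.94 and 8.71 in pdx1.3 leaves and 8.27, 6.76 and 5.6 in WT leaves. The same ratio for GAPDH was 1.01, 1.06 and 1.34 in pdx1.3 leaves and 1.26, 1.14 and 1.14 in WT leaves. WT leaves 1 stood apart. Its mean correlation across genes with the other 2 WT leaf arrays was 0.969, against 0.979 to 0.986 for every other leaf array with its own group. Its log2 signal lay at least 1 above the mean of the other 2 WT arrays for 443 probe sets and at least 1 below it for 200, while pdx1.3 leaves 1, the next most deviant array, had 36 above and 240 below its own group. On the first principal component of the leaf arrays, with 51.6% of the variance, the pdx1.3 arrays were at -34.9, -23.0 and -22.3, and the WT arrays at 49.7, 16.6 and 13.9. WT leaves 1 therefore lay farther from the mutant than the other WT arrays did, and values without it are given beside the counts.

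Markers of the leaf were checked as well. CA1, RCA, GAPA and PSBO1, the 4 of 8 listed photosynthesis genes with a probe set of their own, were present on all 6 arrays with means of 4560 to 5661 in pdx1.3 leaves and 4846 to 6324 in WT leaves, with 0 called and 0 at an unadjusted p under 0.05 in limma. Of 10 root markers 9 were measured, with 0 called and 0 at an unadjusted p under 0.05 in limma, and 6 were present on no leaf array, with summed signals of 836 to 1331 in pdx1.3 leaves and 875 to 1184 in WT leaves. STM, WUS and CLV3, markers of the shoot meristem, were present on no leaf array, while KNAT1 was present on all. The 4 epidermis and trichome markers had summed signals of 1361, 973 and 794 in pdx1.3 leaves against 457, 625 and 680 in WT leaves. All 3 mutant sums exceeded all 3 WT sums, an order that 14.2% of all probe sets had. PDF1 was the largest part of each sum (947, 686 and 535 against 249, 406 and 441), and the ranges of GL2 overlapped. All 4 markers had an unadjusted p under 0.05 in limma, 0 of them lower in pdx1.3 leaves. Over all 22746 probe sets 4818 had such a p, 2831 of them higher and 1987 lower. Of the 4 markers 2 were called, PDF1 with a log2 change of 0.96 (adjusted p = 0.0311 in limma) and GL1, listed as MYB0, with 0.40 (adjusted p = 0.0112 in limma). GL1 was dim, at 7.5 to 10.4 in pdx1.3 leaves and 1.8 to 5.8 in WT leaves. Neither PDF1 nor GL1 was called with the 6 leaf arrays alone, and PDF1 was not called without WT leaves 1 (adjusted p = 0.0809). The part of these markers in the changes of wax and surface genes was not tested.

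PDX1.3 itself checks the labels. The gene (AT5G01410, whose symbol in the RefSeq table is RSR4) had signals of 40.5, 38.2 and 50.5 in pdx1.3 leaves, against 591, 942 and 935 in WT leaves. The groups were far apart, and the WT array with the lowest signal was WT leaves 1. The log2 change was -3.80 (SE 0.18, adjusted p = 7.28e-07 in limma) and -4.02 without WT leaves 1. The 3 mutant signals were still called present, and the sources used here do not say where the probes lie relative to the mutation. Of the 30 protein-coding genes to each side of PDX1.3 on chromosome 5, 45 were measured, and 2 of these were called, where 7.25% of all probe sets were. They were AIRP2, a RING-type ubiquitin ligase of abscisic acid signalling (log2 change 1.40, adjusted p = 0.000884 in limma), and AT5G01300 (0.81, adjusted p = 0.0377 in limma), which was called in 2 of the 6 fits that each left out 1 leaf array (highest adjusted p = 0.1) and not without WT leaves 1 (adjusted p = 0.0733).

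Over all 22746 probe sets, 1650 (7.25%) were called at an adjusted p under 0.05 in limma. Of these, 1075 (4.73%) were higher and 575 (2.53%) lower in pdx1.3 leaves. At least 2-fold were 480 probe sets (2.11%), 291 of them higher and 189 lower. This number was 286 over the leaf arrays alone, and 837 or 210 with a constant of 1 or 64 in place of the 16 added to each signal before log2. The fit drew the spread of each probe set from all 12 arrays. The root groups varied less (mean variance 0.0422 in pdx1.3 and 0.0354 in WT) than the leaf groups (0.0477 and 0.0709). The fit can therefore understate the spread in leaves. With the 6 leaf arrays alone 515 (2.26%) were called, 336 higher and 179 lower, and 503 of these were among the 1650. The excess of higher calls depended on the scaling: with each array centred on its median the counts were 838 higher and 835 lower. Without WT leaves 1 the number was 1619 (7.12%), and without both leaf arrays numbered 1 it was 1476 (6.49%). Of the 1650, 765 were called in every one of the 6 fits that left out 1 leaf array, of which the one without pdx1.3 leaves 2 had the fewest calls (1053). For 5483 probe sets (24.1%) the 2 genotypes had no overlap in signal, with pdx1.3 above WT for 14.2% and below WT for 9.91%.

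**Figure D1:**
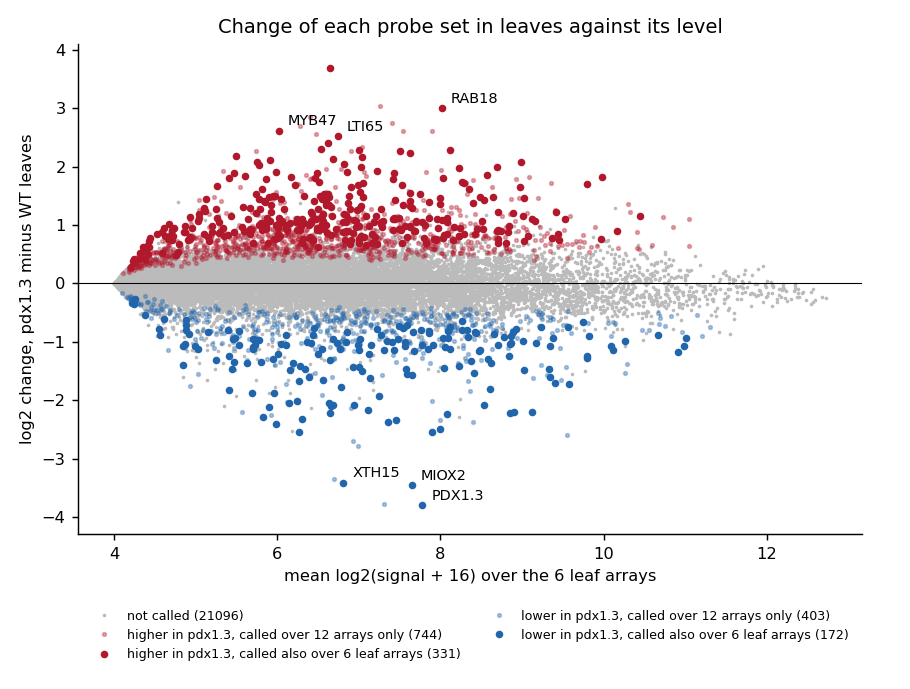
Each point is a probe set, with its mean log2(signal + 16) over the 6 leaf arrays on the horizontal axis and its log2 change, pdx1.3 minus WT leaves, on the vertical axis. Called probe sets are red (higher in pdx1.3) or blue (lower), in full colour where they were also called with the 6 leaf arrays alone, and the falls of PDX1.3, MIOX2 and XTH15 are the largest labelled changes.

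The 15 largest rises and the 15 largest falls were taken among genes called in every one of these leaf fits and over the leaf arrays alone, with separate ranges of signal and at least 1 group brighter on average than its arrays' median. Several of the rises were of genes known for the response to abscisic acid (ABA), the hormone of drought. RAB18, a dehydrin, had signals of 769, 951 and 497 in pdx1.3 leaves, against 42.5, 76.6 and 125 in WT leaves, and a difference of 3.00 on the log2 scale (SE 0.29, limma adjusted p = 0.000107). LTI65, better known as RD29B, had 246, 427 and 130.1 in pdx1.3 leaves, against 17.4, 37.2 and 34.7 in WT leaves (2.52). In both genes pdx1.3 leaves 3 was the lowest mutant array and WT leaves 1 the lowest WT array. That the groups did not overlap was a condition of the choice. RD20, a caleosin of lipid bodies, had 296, 548 and 442 in pdx1.3 leaves and 38.6, 63.6 and 159 in WT leaves (2.24). HB-7, a homeodomain-leucine zipper factor induced by water deficit, had 244, 367 and 213 in pdx1.3 leaves and 25.9, 41 and 66.3 in WT leaves (2.29). NCED3, the enzyme that commits carotenoids to ABA synthesis, had 68.3, 140.2 and 87.5 in pdx1.3 leaves, and 6.3, 13 and 12.3 in WT leaves, where it was present on no array. Its log2 change of 2.07, like that of every gene present on no array of a group, depends on the constant of 16 added to each signal.

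PP2CA, a phosphatase that restrains ABA signalling, also rose (838, 1300.4 and 977 in pdx1.3 leaves and 145, 308 and 272 in WT leaves, log2 change 2.07). GolS2, a galactinol synthase of the raffinose pathway, had 90.7, 86 and 66.4 in pdx1.3 leaves and 5.3, 1.8 and 9.3 in WT leaves, where it was present on no array (2.18), and HIS1-3, a linker histone known from drought, had 81.9, 121 and 132 in pdx1.3 leaves and 12.6, 14.9 and 11.4 in WT leaves (2.12). Among the transcription factors were MYB47 (120.3, 156 and 161 in pdx1.3 leaves and 5.3, 13.2 and 13 in WT leaves, log2 change 2.62, present on no WT array) and ORA47, an AP2/ERF factor (234.3, 225.1 and 341.2 in pdx1.3 leaves and 26.1, 53.7 and 66 in WT leaves, 2.16). The others were the jacalin lectin AT1G52000 (2.30), the amino acid transporter AT2G41190 (2.26), AT3G28220 of the MATH domain family (2.28), and AT2G15020 (2.41) and AT1G78070 (2.12), whose role is not described in the authors' table. In 13 of these 15 rises WT leaves 1 was the dimmest WT array. Without it the log2 changes ran from 1.75 to 2.67, against 2.07 to 3.00 with it. All 15 stayed called, as the choice of genes required. The largest rise of all, 3.68, was that of a probe set that names 2 loci and is therefore not named.

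The 15 largest falls, PDX1.3 included, were of genes of several kinds. MIOX2, an inositol oxygenase that opens the inositol ring on the way to cell wall sugars, had signals of 31.2, 58.2 and 48.2 in pdx1.3 leaves, against 734, 742 and 504 in WT leaves (log2 change -3.45, SE 0.19, adjusted p = 2.32e-06 in limma). XTH15, an enzyme that cuts and rejoins xyloglucan chains of the wall, had 16.8, 15.8 and 22.7 in pdx1.3 leaves, against 527, 299 and 270.5 in WT leaves (-3.42). Both genes were low on all 3 mutant arrays and high on all 3 WT arrays, where separate ranges were a condition of the choice. PYL5, an ABA receptor, had 121, 79.5 and 78.6 in pdx1.3 leaves, against 661, 505 and 609.9 in WT leaves (-2.49). CRK30, a cysteine-rich receptor-like kinase, had 11.5, 11.3 and 12 in pdx1.3 leaves, against 107, 142 and 146 in WT leaves (-2.41). ERD5, the proline dehydrogenase PRODH1, had 296, 177 and 147 in pdx1.3 leaves, against 986, 1076 and 882 in WT leaves (-2.22).

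HB1, a haemoglobin that removes nitric oxide, had 8.2, 22.2 and 18.9 in pdx1.3 leaves, against 351, 112 and 118 in WT leaves (log2 change -2.54), and ABCB21, an auxin transporter, had 13.5, 4.5 and 11.9 in pdx1.3 leaves, where it was present on no array, against 227, 76.2 and 71.8 in WT leaves (-2.29). In both, WT leaves 1 was by far the brightest WT array, and the changes without it were -2.04 and -1.81. DREB26, an AP2/ERF factor (59.5, 54.9 and 55 in pdx1.3 leaves and 238, 478 and 400 in WT leaves, -2.37), had WT leaves 1 as the lowest WT array. The rest comprised PP2-A5 of the phloem protein family (-2.54), the WD-40 repeat protein AT1G24530 (-2.35), the cytochrome P450 CYP71B22 (-2.32), the acid phosphatase AT1G04040 (-2.24), the lipid transfer family member AT5G55450 (-2.22) and AT4G21870 of the small heat shock proteins (-2.20). WT leaves 1 was the brightest WT array in 8 of the 15 falls. Without it the log2 changes ran from -4.02 to -1.81, and all 15 stayed called, as the choice of genes required.

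**Figure D2:**
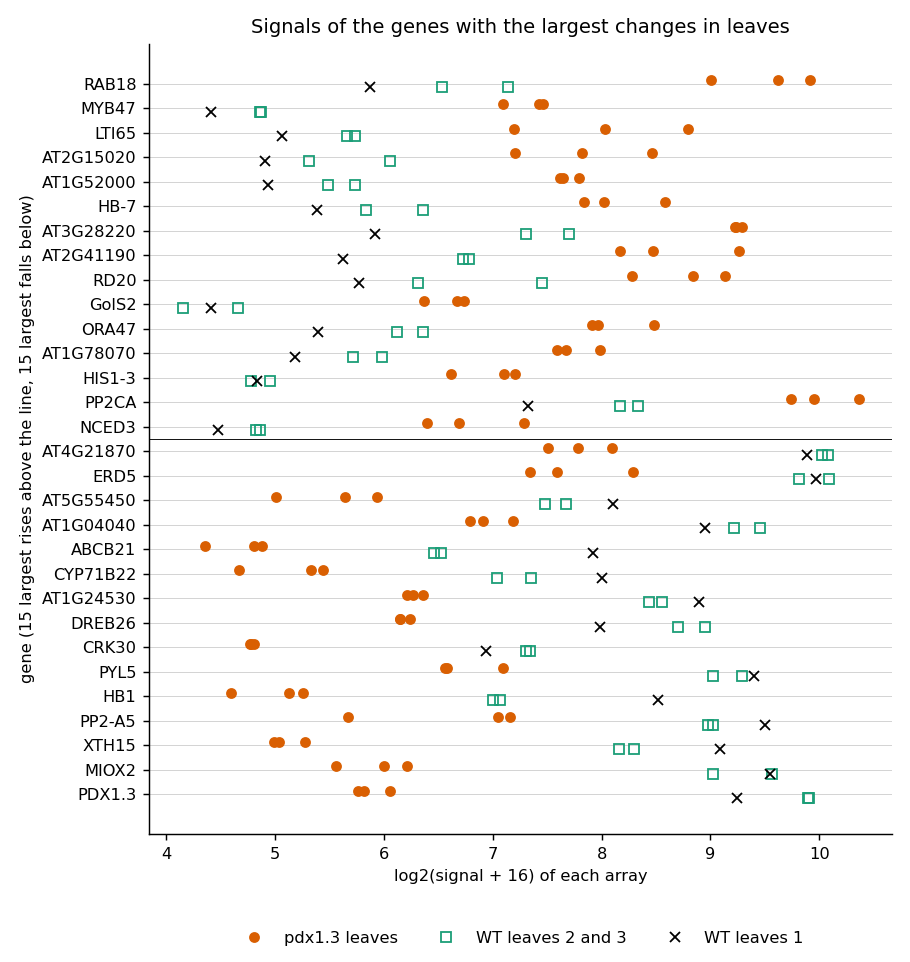
Each row is a gene, with the 3 pdx1.3 leaf arrays (orange circles) and the WT leaf arrays (green squares, and a black cross for WT leaves 1) placed by log2(signal + 16). The genotypes do not overlap in any row, as the choice of genes required, and the cross is the lowest WT point in 13 of the 15 rises and the highest in 8 of the 15 falls.

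Gene families were then counted, each gene once, and set against the shares over the whole array in the fit over 12 arrays (4.73% higher, 2.53% lower). No test was made of a family. Among the families of growth and the cell wall, the xyloglucan endotransglucosylase/hydrolases, which remodel the wall as cells expand, had 9 of 33 measured members lower and 1 higher in pdx1.3 leaves. The counts were 6 lower and 1 higher with the leaf arrays alone, and 10 lower and 1 higher without WT leaves 1. Besides XTH15, XTH33 (5.1, 8.3 and 5.3 in pdx1.3 leaves and 26.4, 37.9 and 33.6 in WT leaves, log2 change -1.13), XTH8 (-1.02) and XTH30 (-0.77) fell, XTH8 with an adjusted p of 0.0531 over the leaf arrays alone. The member that rose, XTH29, stayed under a signal of 10 on every leaf array (0.45). The arabinogalactan proteins and extensins, glycoproteins of the wall and the cell surface, had 10 of 87 lower and 0 higher, against 6 and 0 over the leaf arrays alone and 12 and 0 without WT leaves 1. FLA9, a fasciclin-like member, had 369, 344 and 358 in pdx1.3 leaves, against 922, 1314 and 1444 in WT leaves (-1.71, adjusted p = 9.53e-05 in limma). The lowest of these WT signals was WT leaves 1, and without it the change was -1.90. AGP7 (-1.41), AGP26 (-1.16) and the leucine-rich repeat extensin LRX3 (-1.14) fell as well.

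The expansins, which loosen the wall at low pH, went mostly the other way, with 5 of 31 higher and 1 lower (3 and 0 over the leaf arrays alone). EXPB3 had 209, 120.3 and 109.5 in pdx1.3 leaves, against 31.3, 41.8 and 54.3 in WT leaves (log2 change 1.44), and EXPA1 had 1181, 1309 and 1383 in pdx1.3 leaves, against 779, 781 and 696 in WT leaves (0.77). EXPA15 rose by 0.93, while EXPA16 fell by 0.96 and was not called over the leaf arrays alone (adjusted p = 0.0529). Without WT leaves 1 the expansins counted 4 higher and 4 lower. Of the pectin enzymes and their inhibitors 9 of 189 were higher and 8 lower, the first close to the 4.73% of the whole array. The counts were 1 higher and 4 lower over the leaf arrays alone, and 9 higher and 9 lower without WT leaves 1. Among them were PME5, a pectin methylesterase, up by 1.08 and C/VIF2, an inhibitor of invertase, at -1.31. CESA5, a subunit of cellulose synthase, rose by 0.77, 1 of 3 higher members among 39 cellulose synthases and relatives (1 higher and 0 lower over the leaf arrays alone, and 3 higher and 0 lower without WT leaves 1).

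Of the genes by which hormones steer growth, the SAUR and related auxin-responsive genes had 7 of 56 lower and 3 higher. The counts were 1 lower and 1 higher over the leaf arrays alone, and 11 lower and 4 higher without WT leaves 1. AT4G34770 had 24.4, 32.9 and 24.4 in pdx1.3 leaves, against 139, 107 and 120.1 in WT leaves (log2 change -1.67), while AT2G46690 rose (1.12). BEE1, a factor of the brassinosteroid response, fell (-1.21), and so did AT5G14920 of the gibberellin-regulated proteins (-1.92), whereas RGL3, a DELLA repressor of gibberellin responses present on no WT leaf array, was higher (0.92). Of 65 cyclins and core histones only CYCD3;1, a cyclin of the entry into the cell cycle, was called (0.58). It was called in 2 of the 6 fits that left out 1 leaf array (highest adjusted p = 0.0889 in limma), and neither without WT leaves 1 (adjusted p = 0.0666) nor over the leaf arrays alone (adjusted p = 0.148).

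Among the transcription factors, the MYB family, the largest of them, had the most calls, with 29 of 174 members higher and 3 lower. Over the leaf arrays alone these were 12 and 1, and they were 20 and 5 without WT leaves 1. Its share of called members, 18.4%, was below the 21.8% of the AP2/ERF and DREB factors. MYB16, a regulator of epidermal cell shape and cuticle, had 146, 175 and 146 in pdx1.3 leaves, against 48.8, 73.7 and 56.5 in WT leaves (log2 change 1.19). MYB60, a factor of guard cells, had 67.1, 57.6 and 59.3 in pdx1.3 leaves, against 106, 98.5 and 100.5 in WT leaves (-0.61, adjusted p = 0.00451 in limma, and 0.0564 over the leaf arrays alone). The ranges of both factors were separate, as were those of 24.1% of all probe sets. Of the other guard cell markers FAMA, SPCH, MUTE and KAT1, 0 were called and 0 had an unadjusted p under 0.05 in limma. HRS1 fell too (-1.06).

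The NAC factors had 8 of 84 higher and 0 lower, and the bHLH factors 10 of 66 higher and 0 lower. Over the leaf arrays alone 2 NAC and 3 bHLH factors were higher, and without WT leaves 1 the numbers were 7 and 7. RD26, a NAC factor of the drought response, had 473, 1058 and 703 in pdx1.3 leaves, against 169, 169 and 220.5 in WT leaves (log2 change 1.85). NAC019 had 77.7, 432 and 223 in pdx1.3 leaves, against 17.9, 23.1 and 21.5 in WT leaves (2.55). The mutant arrays of NAC019 differed widely among themselves, with pdx1.3 leaves 1 the lowest, and its adjusted p over the leaf arrays alone was 0.0518. NAM, by contrast, had 199, 199.7 and 208 in pdx1.3 leaves, against 97.7, 78 and 116 in WT leaves, a smaller change with little spread (0.96). MYC2, the bHLH factor at the head of jasmonate responses, had 167, 228 and 238 in pdx1.3 leaves, against 33.9, 46.9 and 52.2 in WT leaves (1.91), and FBH3, a bHLH factor that activates CONSTANS, rose by 1.73.

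The AP2/ERF and DREB factors moved in both directions, with 11 of 87 higher and 8 lower. Over the leaf arrays alone these were 3 and 4, and the balance turned to 7 higher and 11 lower without WT leaves 1. RAP2.4 had 921, 1183 and 988 in pdx1.3 leaves, against 387, 564 and 367 in WT leaves (log2 change 1.22). ERF73, a factor known from low oxygen, had 18.1, 26.4 and 25.8 in pdx1.3 leaves, against 76.3, 52.4 and 56.6 in WT leaves (-0.97). ABF3, a bZIP factor that binds ABA-responsive elements, had 259, 319 and 318 in pdx1.3 leaves, against 104, 104 and 120 in WT leaves (1.32). Its family had 3 higher and 2 lower among 60, with 1 higher and 0 lower over the leaf arrays alone, and 6 higher and 2 lower without WT leaves 1. HAT1, a homeodomain factor of the shade response, had 266, 119 and 196 in pdx1.3 leaves, against 482, 613 and 608 in WT leaves (-1.53), opposite in direction to HB-7. Of 38 phytochromes, B-box and early light-induced genes 7 were higher and 1 lower, with 2 higher and 1 lower over the leaf arrays alone, and 8 higher and 0 lower without WT leaves 1. Among the higher ones were COL1, a CONSTANS-like factor (0.91), and PIF4, a factor that binds phytochrome (0.76, adjusted p = 0.0683 over the leaf arrays alone).

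The WRKY factors, which lead many defence responses, had a smaller share of calls in either direction (4.69%) than the whole array (7.25%). WRKY30, WRKY22 and WRKY21 were called lower among 64 members, and none higher, where 2.53% of all probe sets were lower. They were called in 4, 2 and 0 of the 6 fits that left out 1 leaf array, with highest adjusted p of 0.0547, 0.145 and 0.122 in limma, and none over the leaf arrays alone. Without WT leaves 1 only WRKY30 was called in this family (adjusted p = 0.0446 in limma). WT leaves 1 was brighter than the other WT arrays across this family, by a median of 0.20 on the log2 scale.

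The families of the stress response had larger shares of called members than the whole array (7.25%), though the share of the heat shock genes, 8.77%, was close to it. Of 56 protein phosphatases 2C 11 were higher and 4 lower, 6 and 1 over the leaf arrays alone, and 11 and 1 without WT leaves 1. ABI1, which like PP2CA belongs to the clade that blocks ABA-activated kinases, had 466, 737 and 474 in pdx1.3 leaves, against 125, 176 and 163 in WT leaves (log2 change 1.73). HAB1 had 499.7, 498 and 423 in pdx1.3 leaves, against 84.5, 158 and 142 in WT leaves (1.80), and ABI2 116, 163 and 88.2 in pdx1.3 leaves, against 15.2, 17.4 and 37.9 in WT leaves, where it was present on no array (1.82). The groups did not overlap in any of the 3 genes, as in 24.1% of all probe sets. AT5G02760, another member of the family, fell (469.7, 239 and 229 in pdx1.3 leaves and 1056, 818 and 724 in WT leaves, -1.48).

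Of 49 late embryogenesis abundant proteins and dehydrins, which protect cells that lose water, 13 were higher and 1 lower. Over the leaf arrays alone 3 were higher, and 8 without WT leaves 1. ERD14, a dehydrin present at high level in both genotypes, had 634, 977 and 831 in pdx1.3 leaves, against 357, 325 and 426 in WT leaves (log2 change 1.09). The groups did not overlap, as in 24.1% of all probe sets. The galactinol, raffinose and trehalose genes counted 6 higher and 2 lower of 33, but 3 higher and 1 lower over the leaf arrays alone, and 3 higher and 2 lower without WT leaves 1. DIN10, of the raffinose synthase family and known from darkness, had 1447, 1448 and 1247 in pdx1.3 leaves, against 3225, 3005 and 2596 in WT leaves (-1.08), opposite in direction to GolS2. Of 106 calmodulin-like proteins and calcium-dependent kinases 8 were higher and 4 lower, with 3 higher and 1 lower over the leaf arrays alone, and 10 higher and 2 lower without WT leaves 1. CIPK5, a kinase that binds calcium sensors of the CBL type, had 213, 220 and 207 in pdx1.3 leaves, against 17.4, 48.8 and 62.4 in WT leaves (2.05), and SR1, a kinase of the same group, 250.2, 167 and 268 in pdx1.3 leaves, against 38.4, 52.5 and 87.9 in WT leaves (1.72). SOS3, a CBL-type sensor of the salt response, fell by 0.95. Of 57 heat shock proteins and factors 4 were higher and 1 lower, with 1 higher and 1 lower over the leaf arrays alone, and 4 higher and 1 lower without WT leaves 1. HSFA6A changed by 1.67 and HSFA7A by -1.35.

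**Figure D3:**
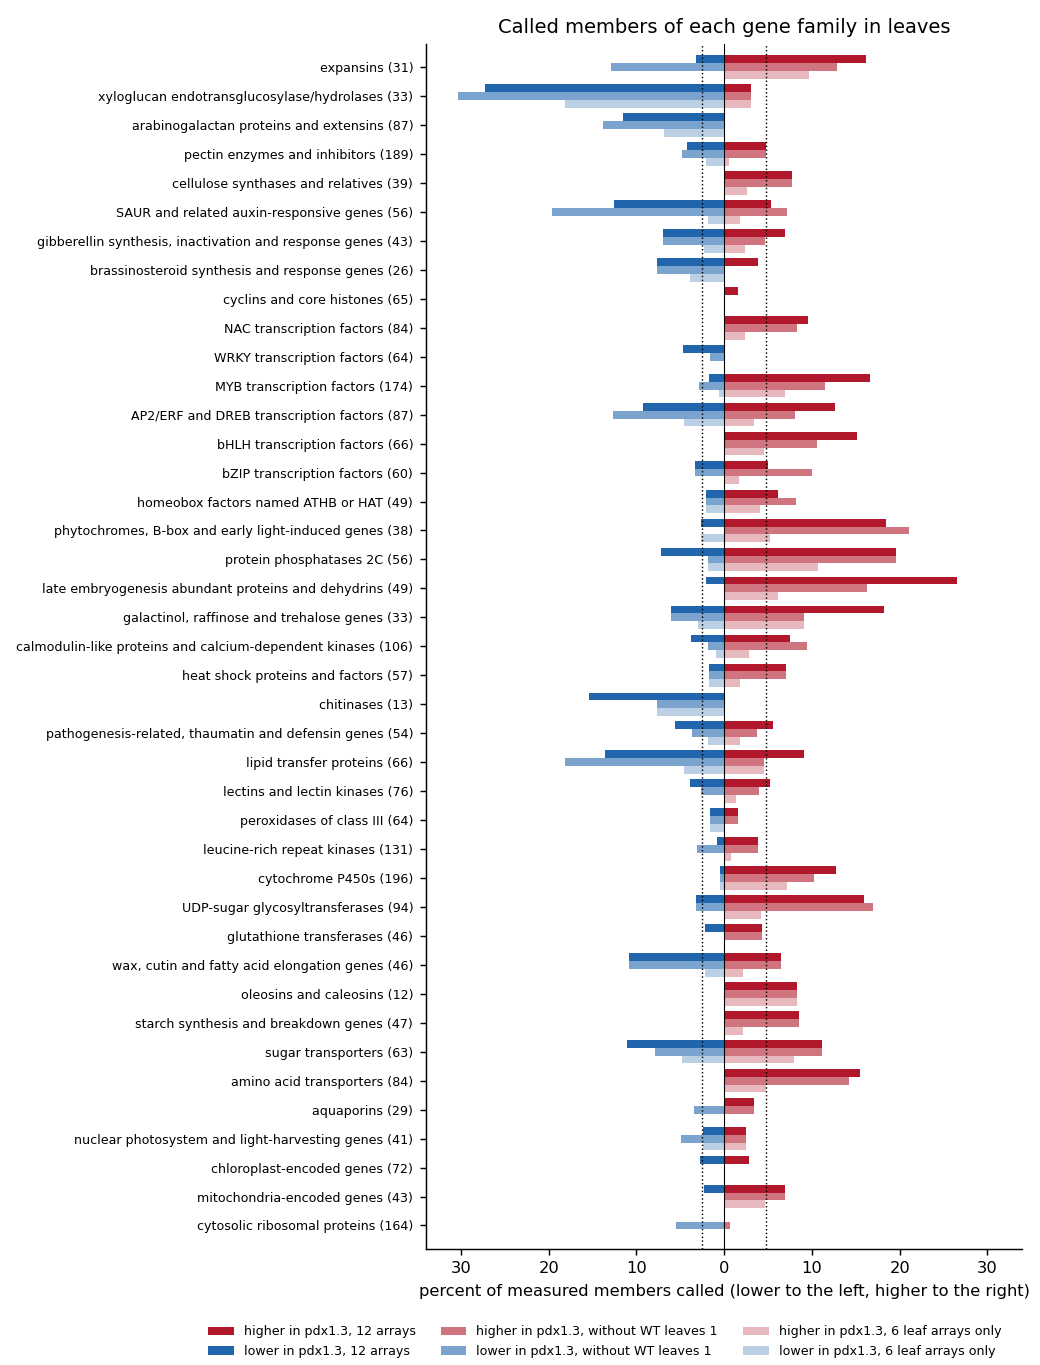
Bars give the percent of measured members of each family (number in brackets) called higher in pdx1.3 leaves (red, to the right) or lower (blue, to the left), from dark to light over 12 arrays, without WT leaves 1 and over the 6 leaf arrays alone. Dotted lines mark the shares over all probe sets in the fit over 12 arrays only, 4.73% higher and 2.53% lower. Of all 22746 probe sets, 974 were called higher and 645 lower without WT leaves 1. Over the 6 leaf arrays alone these were 336 and 179.

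WT leaves 1 bore strongly on some genes of defence. Of 13 chitinases 2 were called lower (1 over the leaf arrays alone and 1 without WT leaves 1), and the family was brighter in WT leaves 1 than in the other WT arrays by a median of 0.35 on the log2 scale. AT2G43620, a chitinase, had 30.9, 28.7 and 21 in pdx1.3 leaves, against 3154, 232 and 244 in WT leaves. WT leaves 1 was far brighter than the other 2 WT arrays, and these were themselves above every mutant array. The log2 change was -3.79 (adjusted p = 0.00726 in limma), and -2.57 (adjusted p = 0.000147) without that array, while over the leaf arrays alone the adjusted p was 0.0852. The lipid transfer family member AT4G22470 was alike, with 18, 11.2 and 21.3 in pdx1.3 leaves, against 1382, 156 and 137 in WT leaves (-3.35, and -2.31 without WT leaves 1). Its adjusted p over the leaf arrays alone was 0.0809.

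Among 66 lipid transfer proteins as a whole, 6 were higher and 9 lower, against 3 and 3 over the leaf arrays alone and 3 and 12 without WT leaves 1. LTP2, which carries lipids to the cuticle, had 186, 238 and 226 in pdx1.3 leaves, against 338, 417 and 416 in WT leaves (log2 change -0.80), and AT4G22490 had 525, 631 and 619.9 in pdx1.3 leaves, against 205, 181 and 249 in WT leaves (1.42). Both were called over the leaf arrays alone. Of 54 pathogenesis-related, thaumatin and defensin genes 3 were higher and 3 lower, with 1 higher and 1 lower over the leaf arrays alone, and 2 higher and 2 lower without WT leaves 1. The osmotin-like AT2G28790 had 152, 157 and 159 in pdx1.3 leaves, against 55.3, 58.4 and 66.9 in WT leaves (1.18). The class III peroxidases (1 higher and 1 lower of 64) and the leucine-rich repeat kinases (5 and 1 of 131) had smaller shares of calls than the whole array. Without WT leaves 1 these counts were 1 and 1 for the peroxidases, and 5 and 4 for the kinases.

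In metabolism, the cytochrome P450s were mostly higher where called, with 25 of 196 higher and 1 lower, 14 and 1 over the leaf arrays alone, and 20 and 1 without WT leaves 1. The member that fell was CYP71B22. HPL1, the hydroperoxide lyase that makes green leaf volatiles, had 75.1, 54.6 and 63.1 in pdx1.3 leaves, against 12.7, 16.9 and 20.6 in WT leaves (log2 change 1.29), and CYP71B11 59.3, 81.1 and 94.6 in pdx1.3 leaves, against 23.3, 16.4 and 17.8 in WT leaves, where it was present on no array (1.41). The UDP-sugar glycosyltransferases had 15 of 94 higher and 3 lower, with 4 higher and 0 lower over the leaf arrays alone, and 16 higher and 3 lower without WT leaves 1. UGT78D1, which attaches rhamnose to flavonols, had 110, 118 and 124 in pdx1.3 leaves, against 40.8, 57.4 and 52.4 in WT leaves (1.02), and GT72B1, another member, rose (1.1).

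The genes of wax, cutin and fatty acid elongation had 3 of 46 higher and 5 lower, with 1 higher and 1 lower over the leaf arrays alone, and 3 higher and 5 lower without WT leaves 1. CER1, which makes the alkanes of leaf wax, had 143, 154 and 119 in pdx1.3 leaves, against 28.6, 33.2 and 66.6 in WT leaves (log2 change 1.44), whereas KCS12, a fatty acid elongase, had 50.3, 90.1 and 51.7 in pdx1.3 leaves, against 275, 150.5 and 177 in WT leaves (-1.43). All 4 called genes among 47 of starch metabolism were higher. The called share, 8.51%, was close to the 7.25% of the whole array, where 4.73% were higher. The counts were 1 higher and 0 lower over the leaf arrays alone, and 4 higher and 0 lower without WT leaves 1. BAM1, a beta-amylase, had 667, 732 and 724 in pdx1.3 leaves, against 209, 316 and 397 in WT leaves (1.20). CT-BMY, the chloroplast beta-amylase BAM3, had 800.3, 607 and 662 in pdx1.3 leaves, against 96, 306 and 294 in WT leaves (1.65). WT leaves 1 was the dimmest WT array in CT-BMY by far, and without it the change was 1.15. Its adjusted p over the leaf arrays alone was 0.0844.

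Calls among the sugar transporters went in both directions, and those among the amino acid transporters in 1 direction. Of 63 sugar transporters 7 were higher and 7 lower, with 5 higher and 3 lower over the leaf arrays alone, and 7 higher and 5 lower without WT leaves 1. ESL1, a sugar transporter of the vacuole induced by ABA, had 150.1, 164 and 137 in pdx1.3 leaves, against 34.6, 54.5 and 42.7 in WT leaves (log2 change 1.48). ERD6, its neighbour in the genome, had 407, 684 and 617 in pdx1.3 leaves, against 1455, 1532 and 1153 in WT leaves (-1.28). The pair thus moved in opposite directions, and so did the sucrose exporters SWEET13 (1.11, present on no WT array) and SWEET10 (-1.07, under a signal of 10 on all mutant arrays). Of 84 amino acid transporters 13 were higher and 0 lower, with 4 over the leaf arrays alone and 12 without WT leaves 1. AAP1, a permease for neutral amino acids, had 518, 364 and 317 in pdx1.3 leaves, against 135, 126 and 171 in WT leaves (1.36). PUT1, a polyamine transporter of this family, had 103, 92.5 and 86.6 in pdx1.3 leaves, against 46.5, 29.5 and 43.9 in WT leaves (0.99).

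The photosynthetic and protein-making machinery showed few calls. Of 41 nuclear photosystem and light-harvesting genes 1 was higher and 1 lower, and 36 had a negative log2 change, with a median of -0.18 against 0.012 over all probe sets. The median was -0.056 after quantile normalization and -0.24 without WT leaves 1, where 1 was called higher and 2 lower. The call that was lower was LHCB4.3, a minor antenna protein of photosystem II, with 184, 230.1 and 256 in pdx1.3 leaves, against 432, 530.4 and 591 in WT leaves (log2 change -1.16), and the higher one was the chlorophyll-binding AT1G76570 (0.85). Of 72 chloroplast-encoded genes 2 were higher and 2 lower, and none of these calls held without WT leaves 1. That array was brighter than the other WT arrays across the chloroplast genes, by a median of 0.39 on the log2 scale.

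Of 164 cytosolic ribosomal proteins 0 were called in limma and 17 had an unadjusted p under 0.05, 16 of them lower in pdx1.3 leaves. In all, 137 had a negative log2 change, and the median was -0.19, with the extremes AT1G74270, of protein L35a (-0.69, adjusted p = 0.0713 in limma), and AT1G80800, a pseudogene of S12 (0.65, adjusted p = 0.166 in limma). The ribosomal genes were dimmer in WT leaves 1 than in the other WT arrays, with a median difference of -0.38 on the log2 scale. Without that array the median change was -0.31, and 9 members were called lower and 1 higher.

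Genes were also ranked by how far WT leaves 1 lay from the other 2 WT arrays. The ranking took genes with at least 1 group brighter on average than its arrays' median, a condition that WT leaves 1 alone can meet. Among these, the largest excess of WT leaves 1 over its fellow arrays was that of FRK1, a receptor-like kinase induced by bacterial flagellin. It had 19.2, 13.3 and 21.8 in pdx1.3 leaves, against 1226, 20.4 and 18.8 in WT leaves. AT2G39530, a membrane protein, had 0.3, 0.7 and 0.4 in pdx1.3 leaves, against 437, 0.7 and 0.8 in WT leaves. In both genes WT leaves 1 alone was bright, and the other 2 WT arrays lay at the level of the mutant. Both met the condition on brightness only through WT leaves 1. Neither was called (log2 change -1.78 and -1.61). Below its fellow arrays WT leaves 1 lay farthest for BBX18, a B-box factor, with 348, 287 and 333 in pdx1.3 leaves, against 14.2, 184 and 216 in WT leaves (1.59, adjusted p = 0.111 in limma). GPAT3, an acyltransferase of glycerol lipids that was also low on WT leaves 1, had 320.5, 318 and 366 in pdx1.3 leaves, against 40.9, 215 and 257 in WT leaves (1.19, adjusted p = 0.145 in limma). Without WT leaves 1, BBX18 was called (adjusted p = 0.0372 in limma). FRK1, AT2G39530 and GPAT3 were not (adjusted p = 0.890, 0.962 and 0.262 in limma). These 4 genes were chosen after their values were seen.

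For the calls as a whole, WT leaves 1 was the dimmest WT array in 56.9% of the 1075 rises and the brightest in 51.7% of the 575 falls, against 34.4% and 44.4% over all probe sets. Without it, 767 of the rises (71.3%) and 427 of the falls (74.3%) were still called, and no called probe set changed its sign. Of the changes of at least 2-fold, 262 of 291 rises and 172 of 189 falls were still called. The median change of the rises was 0.78 with the array and 0.72 without it, and that of the falls -0.80 and -0.76.

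**Figure D4:**
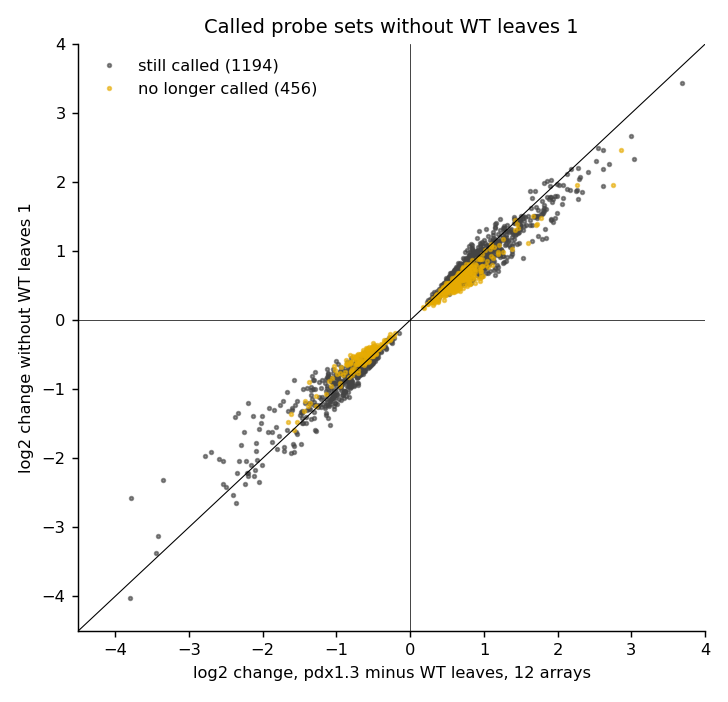
Each point is a probe set called in leaves, with its log2 change, pdx1.3 minus WT leaves, over 12 arrays on the horizontal axis and without WT leaves 1 on the vertical axis; the line marks equal values. Points in dark grey were still called without that array and points in yellow were not, and every point keeps its sign.

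The changes in leaves were then set against those in roots of the same genotypes. In roots 184 probe sets (0.809%) were called. Of the 1650 called in leaves 27 were called in roots, which is 1.64% of the leaf calls and 14.7% of the root calls, with 16 higher in both organs, 9 lower in both and 2 opposite. The difference between the organs was itself called for 429 probe sets (1.89%), 340 of them (20.6% of the leaf calls) called in leaves. Leaving out 1 array changed the number of such differences, which was 554 without pdx1.3 roots 3, 475 without WT leaves 1, 137 without WT roots 2, 178 without pdx1.3 roots 1, 200 without pdx1.3 roots 2, 247 without WT roots 3, 266 without pdx1.3 leaves 2, 272 without WT leaves 2 and 274 without pdx1.3 leaves 3. For most leaf calls a difference from roots was thus not shown. Of the 15 largest rises 14 differed from roots by this test, and so did 14 of the 15 largest falls. These genes were chosen for their change in leaves, and the test shares the leaf arrays with that choice. Some of them, such as RAB18, MYB47 and AT5G55450, were present on no root array, and there the added 16 keeps a root change small. The genes lower in both organs included QQS, an orphan gene that affects starch content, with 41.9, 53 and 53.5 in pdx1.3 leaves, against 301, 276 and 254 in WT leaves (log2 change -2.16 in leaves and -2.63 in roots), and DIN10 (-1.08 and -1.46).

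Those higher in both included SULTR2;1, a sulphate transporter of vascular tissue (1.3 in leaves and 1.58 in roots), PYD4, an aminotransferase (1.62 and 1.23), AOS, which commits lipid peroxides to jasmonate (1.47 and 1.05), and ESL1 (1.48 and 0.90). The 2 genes with opposite calls were ARD3, a dioxygenase of methionine salvage (-0.83 in leaves and 2.38 in roots, adjusted p of the difference 0.000297 in limma), and the peptide transporter AT1G22550 (-0.67 and 0.71, adjusted p of the difference 0.00232 in limma). The leaf call of ARD3 held in 2 of the 6 fits that left out 1 leaf array (highest adjusted p = 0.0912) and was lost without WT leaves 1 (adjusted p = 0.0504), and over the leaf arrays alone neither gene was called in leaves (adjusted p = 0.0606 and 0.0594). The genes named in this comparison were chosen after their values were seen, apart from DIN10 and ESL1.

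**Figure D5:**
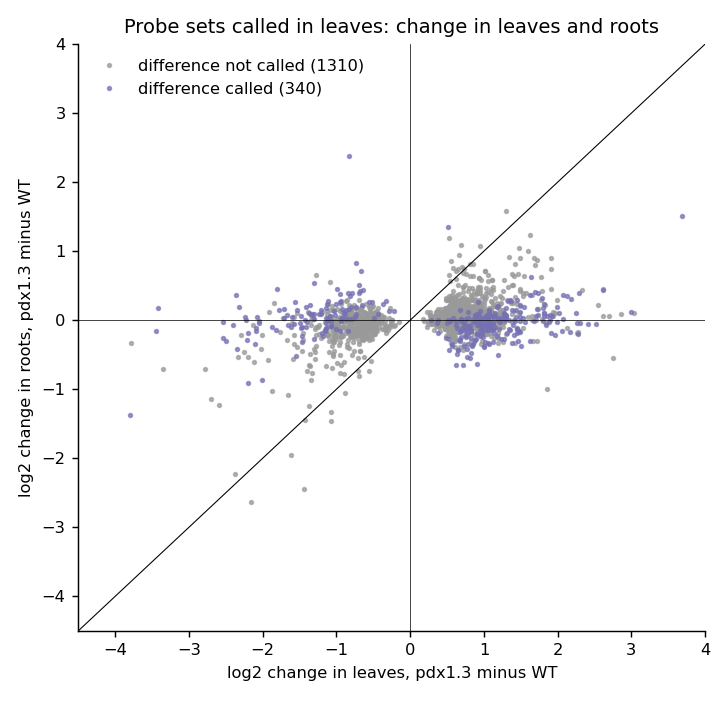
Each point is a probe set called in leaves, with its log2 change, pdx1.3 minus WT, in leaves on the horizontal axis and in roots on the vertical axis; the line marks equal values. Purple points are the 340 whose change differed between the organs by the test of the difference, and most points lie near a root change of 0.

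The authors' deposited table holds its own comparison of the leaf arrays. Under the rule of at least 2-fold with the same change call in at least 7 of the 9 pairs of a mutant and a WT array, 853 probe sets of the authors' deposited table passed, 538 with an increase and 315 with a decrease. Of these 704 (82.5%) were called here, all in the same direction, which is 42.7% of the calls here. The authors' deposited unadjusted p-values were under 0.05 for 2560 of 22746 probe sets, and after Benjamini-Hochberg adjustment 0 of these p-values in the authors' deposited table remained under 0.05, while limma over the 6 leaf arrays called 515.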

How the data were processed

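RNA of leaves and roots was hybridised to Affymetrix ATH1 arrays, 1 array for each of 12 samples. Per the labels' protocols and the submitters' processing notes, the authors made MAS5 signals and detection calls in GCOS (no version is stated). The deposited signals are intensities on a linear scale, scaled by the authors, and the authors' deposited table adds detection calls, fold changes, change calls over 9 array pairs and unadjusted p-values. A second deposited table of the same signals served as an alternative. Arrays have no read depth, and their number, 3 in each group, limits the precision. The samples are named as biological replicates in the study's design text.

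Here 16 was added to each signal, log2 was taken, and group means were fitted over all 12 arrays with limma 3.58.1 in R 4.3.3 (eBayes with a variance trend, 8 residual degrees of freedom). All fold changes are on this log2(signal + 16) scale, which understates changes of dim genes. P-values were adjusted by Benjamini-Hochberg over 22746 probe sets, control probe sets left out, and "called" means an adjusted p under 0.05. The leaf contrast is pdx1.3 minus WT, and the interaction is the leaf contrast minus the root contrast. The script was tested on simulated data. Leaf samples of the 2 genotypes with the same replicate number did not vary together, and pairs across organs were not checked.

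Only probe sets that name 1 locus were named, with symbols matched by locus to the RefSeq table of TAIR10.1. The naming rule took PDX1.3, the 15 largest rises and falls and up to 4 called members of each family in each direction with the smallest p, 213 genes in all, of which a selection is described. FRK1, AT2G39530, BBX18, GPAT3, QQS, PYD4, AOS, SULTR2;1, AT1G22550, ARD3, AIRP2, AT5G01300, PDF1 and MYB0 were chosen after their values were seen. The genes and families were chosen with earlier results of these data known, and the definitions of some of the 41 families were edited with the values in view, so no test rests on them. A planned count of promoter motifs was not made, since no promoter sequences were at hand.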

Additional observations from a re-analysis of the deposited data

Results flagged for a closer look

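For the genes that follow, the change between pdx1.3 and WT differed between leaves and roots by the interaction test of limma (adjusted p under 0.05 over all probe sets). The value in brackets is the log2 change in leaves minus that in roots. Most of these genes were chosen for their change in leaves, and the test shares the leaf arrays with that choice. Some, such as RAB18, MYB47 and AT5G55450, were present on no root array, and there the added 16 keeps a root change small.

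The change was more positive in leaves, by the largest margins, for RAB18 (2.88), LTI65 (2.57), AT3G28220 (2.48), AT2G15020 (2.47), AT1G52000 (2.34), ORA47 (2.34), AT2G41190 (2.30), CIPK5 (2.21), MYB47 (2.19), RD20 (2.14), NCED3 (2.06), HB-7 (1.90) and GolS2 (1.87). Next in size were RD26 (1.79), AT1G78070 (1.77), ABI2 (1.72), PP2CA (1.71), HSFA6A (1.68), ABI1 (1.65), CER1 (1.63), AIRP2 (1.63), HAB1 (1.62), AT4G22490 (1.44), CYP71B11 (1.41), EXPB3 (1.39) and FBH3 (1.35). The smallest of these differences were those of AT2G46690 (1.25), ERD14 (1.23), PME5 (1.19), EXPA1 (1.18), MYB16 (1.15), HPL1 (1.12), AAP1 (1.08), ABF3 (1.04), EXPA15 (1.01), AT2G28790 (0.99), PUT1 (0.99), NAM (0.98), COL1 (0.98) and RGL3 (0.66).

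The change was more negative in leaves, by the largest margins, for XTH15 (-3.60), MIOX2 (-3.29), ARD3 (-3.21), DREB26 (-2.73), PP2-A5 (-2.51), CYP71B22 (-2.50), RSR4 (-2.43), CRK30 (-2.34), AT1G04040 (-2.29), HB1 (-2.27), AT5G55450 (-2.22), PYL5 (-2.20), AT1G24530 (-1.94) and ERD5 (-1.92). Smaller negative differences were those of AT4G34770 (-1.75), FLA9 (-1.74), HAT1 (-1.68), AT5G02760 (-1.55), KCS12 (-1.43), AT1G22550 (-1.38), AGP7 (-1.32), BEE1 (-1.31), AT4G21870 (-1.29), LRX3 (-1.04), C/VIF2 (-1.03), AGP26 (-1.02), LHCB4.3 (-1.0) and SWEET10 (-0.99). RSR4 is PDX1.3 itself. The causes were not tested.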

How the results depend on the processing

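Of the 110 called genes named in the text, 0 turned the sign of their leaf change in any alternative limma fit. At an adjusted p under 0.05, 69 were called in all of these fits that held their probe set. The threshold of 0.01 and the authors' p-values are not part of this count. Some of these genes were chosen because their calls held in several of these fits. The number of probe sets called in leaves (1650) was 2819 with array weights, 651 at an adjusted p under 0.01, 515 over the leaf arrays alone, 530 over the leaf arrays without WT leaves 1, and 0 when the authors' p-values were adjusted. With the actin ratio of each array as a covariate 1479 were called. Leaving out 1 array gave 1053 (without pdx1.3 leaves 2) to 1672 (without pdx1.3 roots 3). The number at 2-fold or more (480) was 837 with a constant of 1, 210 with a constant of 64, 286 over the leaf arrays alone and 289 over the leaf arrays without WT leaves 1, and 403 (without WT leaves 1) to 560 (without WT leaves 3) with 1 array left out. The number that differed between leaves and roots (429) was 1696 with array weights and 248 with a constant of 1, and 137 (without WT roots 2) to 554 (without pdx1.3 roots 3) with 1 array left out. Of these differences, leaf minus root change, 258 were positive and 171 negative, but without WT roots 2 the counts were 62 and 75. The leaf arrays alone leave fewer residual degrees of freedom, and their spread is not pooled with that of the less variable root arrays. The causes of the differences in count were not tested. The fit over the leaf arrays without WT leaves 1, the adjustment of the authors' p-values and the alternatives for the difference between organs were chosen after seeing the data.

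With the replicate number as a block, 976 probe sets were called in leaves, 430 of them at 2-fold or more, and 134 differed between leaves and roots. The deviations of same-numbered pdx1.3 and WT leaf arrays correlated at -0.0894, -0.0428 and -0.00696 across genes, so the numbers were not taken as pairs. Of the 110 called genes named, 34 lost their call over the leaf arrays without WT leaves 1, 17 over the leaf arrays alone, 9 without both leaf arrays numbered 1, 8 with a constant of 1, 6 without WT leaves 1 and 6 with the replicate block. Calls held less often over the whole array. Of all 1650 called probe sets, 503 were also called over the leaf arrays alone and 1194 without WT leaves 1. WT leaves varied most among the 4 groups, with a mean variance within the group of 0.0709, against 0.0477 in pdx1.3 leaves, 0.0422 in pdx1.3 roots and 0.0354 in WT roots.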
